A study of Mus musculus with 2 samples.

Results

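Rab proteins are small GTPases of membrane traffic, and the Rab genes are described here in total RNA from mouse hippocampus. A gene was counted as a Rab gene when its symbol was Rab followed by a number and at most 1 letter and when at least 1 of its transcripts was annotated as protein-coding. This gave 59 genes of 55536 mouse genes, or 59 of the 22015 nuclear protein-coding genes. The samples were 2 libraries, biological replicates 1 and 2, of a layer of hippocampus from adult female 5xFAD/CAST mice aged 8 to 10 months. 5xFAD mice are an amyloid model in which the Thy1 promoter, active in neurons, drives human transgenes with familial Alzheimer mutations, APP among them, and CAST is a wild-derived inbred strain. Both libraries carried the same donor record, so the labels leave it undecided whether 2 animals were sampled, and the spread between them may be technical. The input was 300 ng of RNA, to which ERCC spike-in molecules were added. With 1 group and no control samples the data give levels, splice forms and the difference between the replicates, and no difference was tested.

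Replicates 1 and 2 held 27682992 and 32169915 expected counts on mouse genes, counts in which a read that fits several genes is split between them. Levels are in TPM, a share of all transcripts, which corrects for transcript length, and are printed as replicate 1 and then replicate 2 or as mean ± SD (n = 2). All 5 neuronal markers, all 3 CA1, both CA3 and all 3 dentate granule cell markers were above 1 TPM in both libraries, as were markers of astrocytes, microglia and oligodendrocytes. The summed level of 4 choroid plexus markers was 439 TPM in replicate 1, against 150.2 TPM in replicate 2.

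A Rab protein cycles between a GTP-bound form, which sits on the membrane of 1 kind of compartment and recruits effectors such as tethers and motors, and a GDP-bound form held in the cytosol by GDP dissociation inhibitors. Guanine nucleotide exchange factors switch it on, GTPase-activating proteins switch it off, and lipid tails on cysteines at its C terminus anchor it. In neurons Rab proteins mark synaptic vesicles, the Golgi, and early, recycling and late endosomes, and enlarged early endosomes are a long-known feature of neurons in Alzheimer disease.

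The coding sequences carry that anchor as cysteine codons next to the stop codon, and all 59 genes had such a codon among the last 5 codons of the complete coding transcript with the highest count. The last 30 coding bases of 11 of them, stop codon included, are printed because they give each arrangement and the genes with the highest levels. They were read from the GENCODE M21 transcripts, 5′ to 3′, and capitals mark the cysteine codons.
Rab3a-201: gcgccacctcatcaggatTGTgccTGCtga
Rab6b-201: ccggccagcgagggcggcTGCtccTGTtaa
Rab7-205: aaggcctccgcagaaagcTGCagtTGTtga
Rab1a-201: gtcaagcagtcaggtggaggcTGCTGCtaa
Rab2a-201: ggacagcaggcagggggaggcTGCTGTtga
Rab10-201: gtgacgggctggaagagcaagTGCTGCtga
Rab5a-201: ccagccagaagccagTGTTGTagtaactga
Rab11b-203: aacaagctgcagTGCTGCcagagcctgtga
Rab8a-201: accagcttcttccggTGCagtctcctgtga
Rab23-201: aaccctttcagcagcTGTagtgtaccctaa
Rab40b-201: tgtgccaggaacagcTGCaaaatttcttag

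In Rab3a, Rab6b and Rab7 the 2 cysteine codons stood last and with 1 codon between them, an arrangement shared by 20 members that held 48.5% ± 0.855 of the summed Rab TPM. Rab1a, Rab2a and Rab10 belonged to 15 members that ended in 2 adjacent cysteine codons and held 20.3% ± 0.579. In 15 members, Rab5a and Rab11b among them, the adjacent pair lay inside the last 5 codons and was followed by other codons, with 22.3% ± 0.282 of the TPM. Rab8a, Rab23 and Rab40b were among 9 members that had a single cysteine codon 3 codons before the last, the position of the cysteine in proteins with a single lipid tail, and these held 8.84% ± 0.0057. The arrangement of each gene was a property of the annotation and not of these samples.

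Of the 59 Rab genes, 53 were detected, with 1 TPM or more in each library, which is 89.8% of them beside 60.2 percent of all nuclear protein-coding genes. In both libraries 40 stood at 10 TPM or more, and 7 at 100 TPM or more. The median Rab gene stood at 16.3 and 17.5 TPM, and the median over the detected Rab genes was 21.9 ± 0.460 TPM beside 15.3 ± 0.0566 TPM over the detected nuclear protein-coding genes. The summed level was 2301 and 2464 TPM, or 0.532% ± 0.0144 of the TPM of nuclear protein-coding genes. Few genes carried most of it, since the 10 highest held 57.0% ± 0.415 of the sum.

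**Figure D1:**
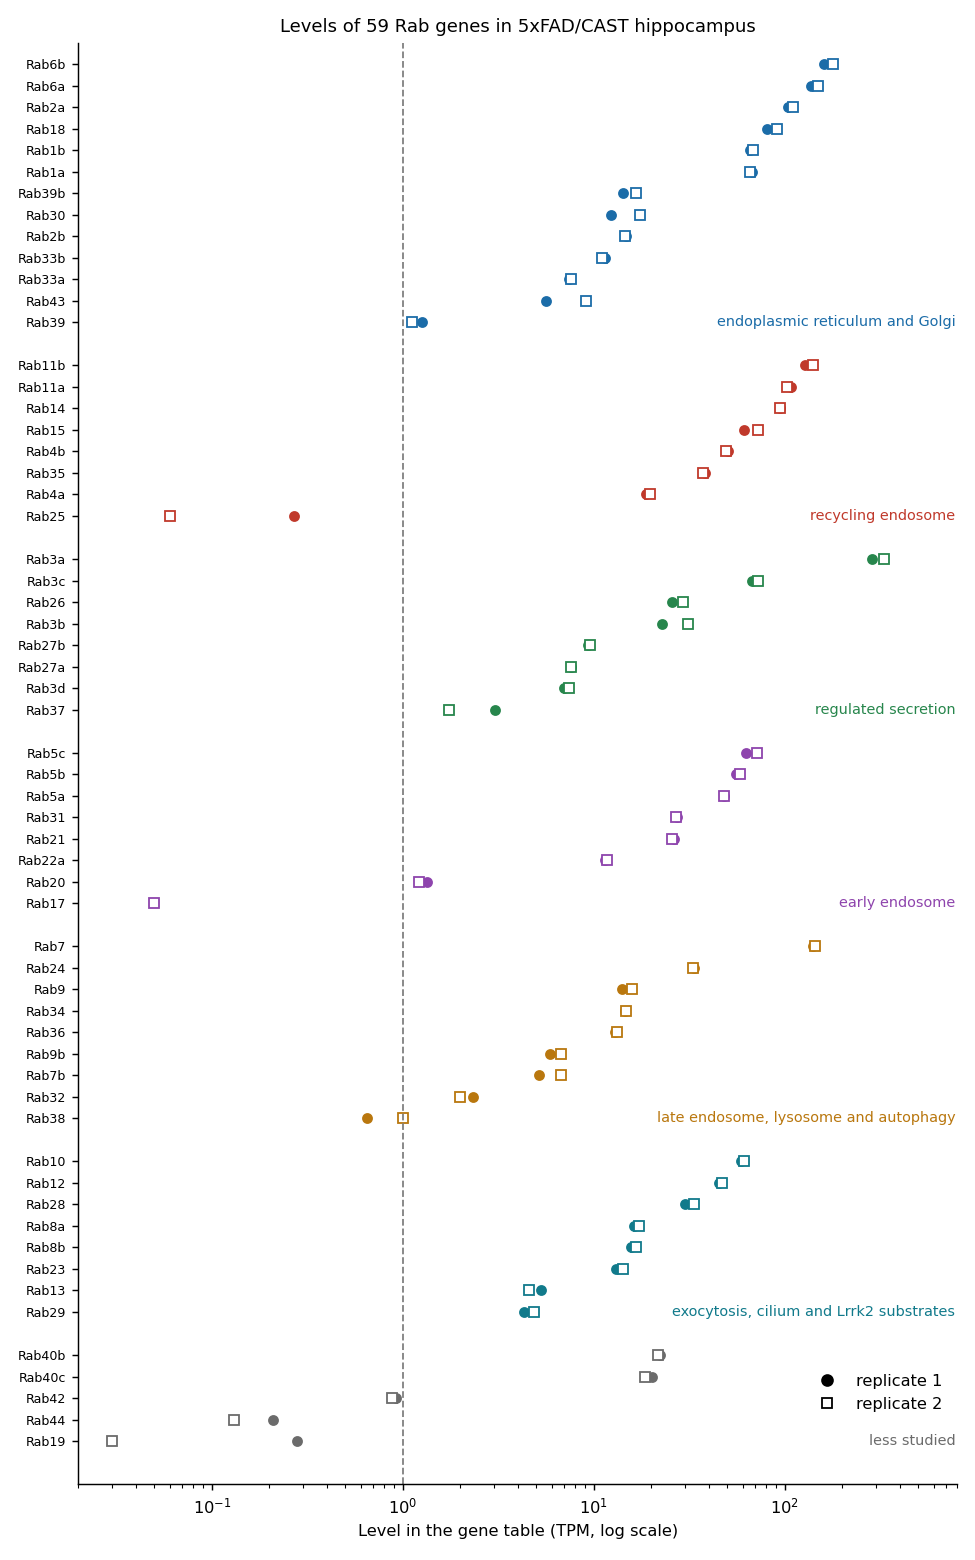
Level of each Rab gene in TPM on a log axis, grouped by role, with replicate 1 as filled circles and replicate 2 as open squares. The dashed line marks 1 TPM, Rab3a stands highest at 287 and 329 TPM, and the value of 0 for Rab17 in replicate 1 is not drawn.

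For description each Rab gene was assigned by hand to a single role group, so the shares of the groups depend on that assignment. Rab genes of the endoplasmic reticulum and Golgi held the largest share of the sum, 29.8% ± 0.294 over 13 genes, and all 13 were detected. Rab6b, the neuron-rich form of the Rab6 proteins that carry membrane back through the Golgi, stood at 160.3 and 179 TPM (mm10 chromosome 9, 103111787 to 103185276, plus strand) and had the highest count of all Rab genes. Rab6a, the form found in all cells, stood at 137 and 149 TPM, below Rab6b in both libraries (chromosome 7, 100607410 to 100641268, plus strand). Rab2a, which acts between the endoplasmic reticulum and the Golgi, had 103 and 109.6 TPM, and its sister gene Rab2b 14.8 and 14.6 TPM. Rab1a and Rab1b, which bring vesicles from the endoplasmic reticulum to the Golgi, were at one level, with 67.5 and 65.8 TPM for Rab1a and 66.0 and 67.8 TPM for Rab1b. Their order changed between the replicates. Rab18, found on lipid droplets and the endoplasmic reticulum, had 80.3 and 90.9 TPM. The rest of the group was lower. Rab39b, whose loss causes intellectual disability and parkinsonism in humans, had 14.2 and 16.5 TPM, whereas its sister gene Rab39 had 1.26 and 1.12 TPM. Rab33b, which binds the autophagy factor Atg16l1, had 11.4 and 11.0 TPM, and Rab33a 7.36 and 7.59 TPM.

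Rab genes of recycling endosomes came next with 21.3% ± 0.483, and 7 of 8 were detected. Rab11b and Rab11a, which return cargo through the recycling endosome and supply dendritic spines, stood at 128 and 141 TPM for Rab11b (chromosome 17, 33742484 to 33760530, minus strand) and 107.5 and 102 TPM for Rab11a (chromosome 9, 64715299 to 64737758, minus strand). Rab14, which works between endosomes and the Golgi, had 93.8 and 94.7 TPM. Rab15, a neuron-rich Rab of early and recycling endosomes, had 60.7 and 72.0 TPM. Rab4b and Rab4a, of the fast recycling route, had 50.3 and 49.3 TPM and 18.8 and 19.6 TPM. Rab35, which also serves fast recycling, had 38.0 and 37.4 TPM. Rab25, the epithelial relative of the Rab11 genes, was listed at 0.27 and 0.06 TPM on 4 counts and 1 count.

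The 8 genes of regulated secretion held 19.2% ± 0.800, and all 8 were detected. Rab3a, the Rab of synaptic vesicles, was the highest Rab gene at 287 and 329 TPM and ranked 128 among the nuclear protein-coding genes (chromosome 8, 70754679 to 70758677, plus strand). Rab3c, another synaptic vesicle Rab, had 66.9 and 72.1 TPM, and Rab3b 22.8 and 31.2 TPM. Rab26, which links synaptic vesicles to autophagy, had 25.6 and 29.2 TPM. The levels of Rab27b and Rab27a, which dock secretory granules, were 9.33 and 9.58 TPM and 7.62 and 7.54 TPM. Rab3d, best known from exocrine glands, had 6.96 and 7.44 TPM. Rab37, known from mast cell granules, was the lowest of the group at 3.02 and 1.74 TPM.

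Early endosome genes held 9.98% ± 0.118, with 7 of 8 detected. The Rab5 genes, which drive the fusion of early endosomes, stood close together, with 62.3 and 71.8 TPM for Rab5c, 55.2 and 58.4 TPM for Rab5b and 47.7 and 48.2 TPM for Rab5a. Their order by TPM was the same in both libraries. Rab31, active between the Golgi and endosomes, had 27.3 and 26.9 TPM. Rab21, which moves integrins, had 26.2 and 25.7 TPM, and Rab22a, of early endosomes, 11.5 and 11.7 TPM. Rab20 was near the limit at 1.34 and 1.21 TPM. Rab17, an epithelial Rab, had no count in replicate 1 and 1 count in replicate 2. With no count seen, a level of up to 3 counts remains possible in replicate 1, which is 0.108 CPM and covers counting error only.

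Late endosome, lysosome and autophagy genes held 9.79% ± 0.232 over 9 genes, of which 8 were detected. Rab7, the Rab of late endosomes and lysosomes, made up most of this at 139.8 and 144 TPM (chromosome 6, 87999106 to 88045270, minus strand), and Rab7b had 5.18 and 6.71 TPM. Rab24, linked to autophagy, had 33.6 and 33.2 TPM. Rab9, which serves transport from late endosomes to the Golgi, had 14.1 and 15.8 TPM, and Rab9b 5.92 and 6.72 TPM. Rab34 and Rab36, a pair of related Rabs linked to lysosome position, had 14.6 and 14.7 TPM and 12.9 and 13.2 TPM. Rab32, known from melanosomes, had 2.34 and 2.00 TPM, and its relative Rab38 was at 0.65 and 1.00 TPM, below the limit in 1 library.

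The group of exocytosis, cilium and Lrrk2 substrate genes held 8.13% ± 0.0938, and all 8 were detected. Any Lrrk2 substrate assigned to another group is not counted in this share. Rab10, a substrate of Lrrk2 that directs exocytosis, led at 59.2 and 60.7 TPM (chromosome 12, 3247428 to 3309969, minus strand). Rab12, also a Lrrk2 substrate, had 44.9 and 47.0 TPM, and Rab28, a ciliary Rab, 29.8 and 33.5 TPM. Rab8a and Rab8b, which serve exocytosis and ciliary traffic, had 16.3 and 17.3 TPM and 15.6 and 16.7 TPM. Rab23, a regulator of Hedgehog signalling, had 13.1 and 14.1 TPM. Rab13, of epithelial junctions, had 5.30 and 4.59 TPM, and Rab29, which recruits Lrrk2, 4.29 and 4.87 TPM. Among the less studied genes, Rab40b and Rab40c, which carry a SOCS box and act in ubiquitin ligases, had 22.2 and 21.5 TPM and 20.1 and 18.5 TPM, while Rab42, Rab44 and Rab19 stayed below 1 TPM.

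The coding sequences of genes that share a number were 62.5% identical for Rab7 and Rab7b to 78.5% identical for Rab6a and Rab6b over the aligned bases. The median was 74.8% over 21 pairs, beside 56.0% over pairs with unlike numbers. A shared number did not always mark the closest pair, since Rab10 and Rab8b were 72.2% identical, more than Rab7 and Rab7b. In spite of this likeness few reads were shared, since the posterior SD of the count, the deposited measure of uncertain read assignment, was 0 for 43 of the 53 detected genes. It exceeded 1% of the count for 1 gene, Rab43, at 7.12%, and Rab43 overlapped Gm45140 on the same strand. Some sets had 1 leading gene. Rab7 held 96.0% ± 0.624 of the TPM of its pair, Rab39b 92.8% ± 1.28, Rab2a 87.9% ± 0.534 and Rab3a 74.8% ± 0.0241 of the 4 Rab3 genes. Others were even, with Rab1b at 50.1% ± 0.916 of the Rab1 pair and Rab5c, Rab5b and Rab5a at 39.0% ± 1.78, 33.1% ± 0.459 and 28.0% ± 1.32 of theirs.

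Counts and TPM, which divides by length, ordered some sets differently. Rab3c-201 is 8444 bases long and Rab3a-201 is 1363, and Rab3c held 53.0% ± 1.41 of the Rab3 counts and 16.9% ± 0.724 of the Rab3 TPM, while Rab3a held 41.4% ± 1.03 of the counts. Rab9 held 70.3% ± 0.191 of the TPM of its pair and 45.1% ± 0.219 of the counts, where Rab9b-201 has 3980 bases and Rab9-202 has 1447. Rab1a held 57.3% ± 0.314 of the Rab1 counts.

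**Figure D2:**
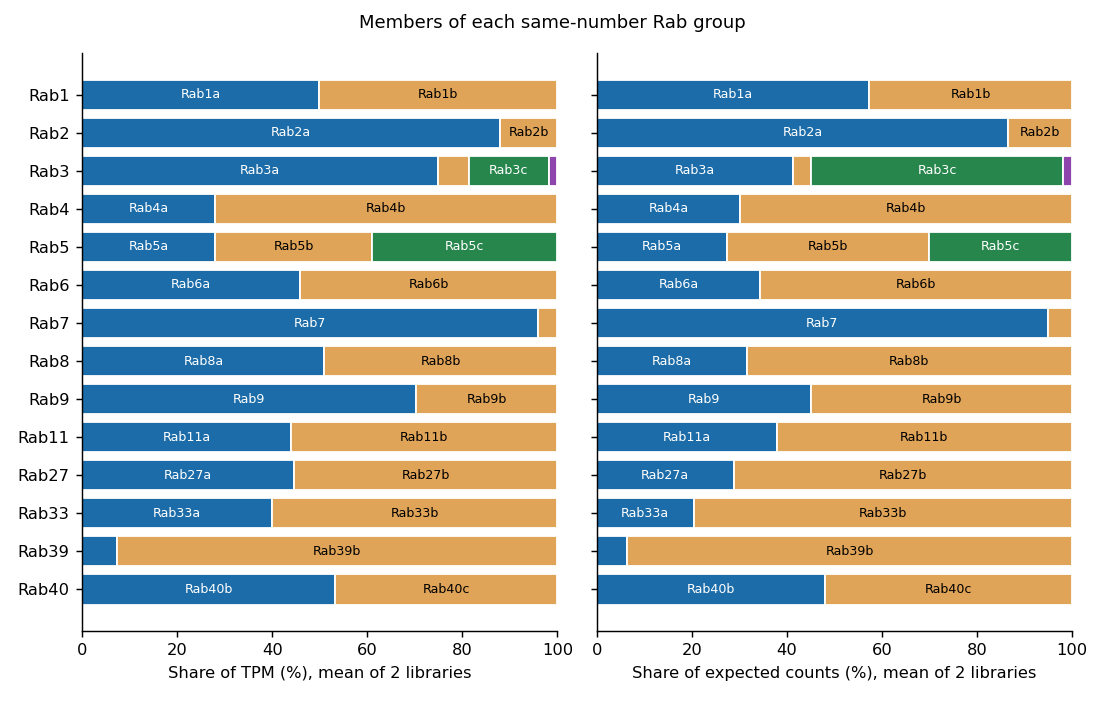
Share of each gene in the TPM (left) and in the expected counts (right) of Rab genes with the same number, as the mean of both libraries. Rab3a holds 74.8% of the Rab3 TPM but 41.4% of the Rab3 counts, and unlabelled segments are below 9%, Rab3b and Rab3d among them.

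The Rab genes had 256 annotated transcripts, of which 155 were protein-coding, 53 were retained-intron forms, 13 were marked for nonsense-mediated decay and 35 were processed transcripts without a reading frame. Protein-coding transcripts held 91.5% ± 0.384 of the Rab TPM. Noncoding is used here for every form not annotated as protein-coding, and so includes the decay forms, although these have an annotated reading frame. Of the detected genes 25 had less than 5% of their TPM on noncoding forms and 11 had at least 20%, but only 5 had 20% or more of their counts there. A short transcript weighs more in TPM than in counts.

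Rab23 had the largest noncoding share, 63.7% ± 1.21 of TPM and 36.4% of counts, spread over several retained-intron forms, and its coding transcript Rab23-201 stood at 4.01 and 4.29 TPM. Rab8a followed with 59.3% ± 4.23 of TPM but 12.4% of counts. Almost all of this was Rab8a-202, a retained-intron form of 542 bases at 9.18 and 9.70 TPM, beside 7.11 and 6.50 TPM for the coding Rab8a-201 of 4550 bases. Rab8a held 50.9% ± 0.127 of the Rab8 TPM but 29.7% ± 2.28 of the coding Rab8 TPM, and Rab8b was the higher of the pair by coding transcripts. Rab26 had 43.3% ± 6.49 of its TPM and 38.9% of its counts on noncoding forms, chiefly the retained-intron form Rab26-205 at 8.16 and 8.00 TPM beside 11.7 and 16.7 TPM for the coding Rab26-201. Rab26 overlaps Traf7 on the same strand, a gene at 41.1 and 36.4 TPM, and the part of Traf7 reads in these values was not tested. Rab36 had 35.2% ± 3.38 of its TPM and 26.0% of its counts on noncoding forms. Rab35 had 30.7% ± 4.72 of its TPM, 12.4% of its counts and 42.0% of its kallisto-layout TPM on the decay form Rab35-202, at 12.9 and 10.2 TPM in the transcript table.

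**Figure D3:**
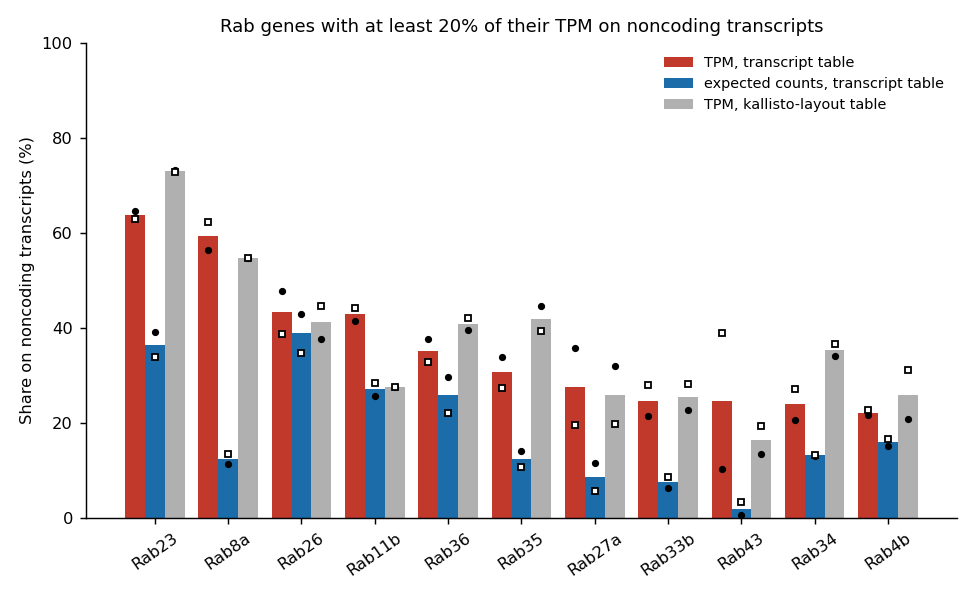
Share of each gene's level on noncoding transcripts for the 11 detected Rab genes with at least 20% of TPM there, as means (bars) with replicate 1 (filled circles) and replicate 2 (open squares). Noncoding covers every form not annotated as protein-coding, decay forms included. For Rab8a the share is 59.3% of TPM and 12.4% of counts.

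The Rab11 pair depended on how reads were assigned to transcripts. For Rab11b the decay form Rab11b-204 of 924 bases took 53.1 and 61.9 TPM, against 45.6 and 40.1 TPM for the coding Rab11b-203. The kallisto-layout table listed Rab11b-204 at 0 in both libraries and put 32.2 and 32.1 TPM on the processed form Rab11b-205. Rab11b held 56.2% ± 2.60 of the Rab11 TPM, 62.1% ± 0.253 of the counts, 45.8% ± 1.47 of the coding TPM and 49.9% ± 0.432 of the kallisto-layout TPM. The order of Rab11b and Rab11a turned with the measure.

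For Rab11a the question is which coding end the RNA carries. Rab11a-206, 462 bases long and coding from its first base to its last, took 53.3 and 47.0 TPM, while the full-length Rab11a-208 of 2336 bases took 32.9 and 36.7 TPM. By counts the order was the other way, 17.1% ± 2.00 for Rab11a-206 against 73.0% ± 3.62 for Rab11a-208, and the kallisto-layout table listed Rab11a-206 at 0 and Rab11a-208 at 26.0 and 27.7 TPM. The ends of the 2 coding sequences are shown because they differ in the anchor, with cysteine codons in capitals. The end of Rab11a-208 lies at mm10 chr9:64716849-64716878, minus strand.
Rab11a-208: ccaaaggtgcagTGCTGTcagaacatctaa
Rab11a-206: aagaatgaagcaaatgtcagacagacgtga

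The annotated end of Rab11a-206 has no cysteine codon among its last 5, and that of Rab11a-208 has the adjacent pair. How much of the Rab11a RNA lacks the anchor codons was not settled by these files, which disagree on Rab11a-206.

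Rab28 gave a second case, in which both tables agreed on the forms. Rab28-201 took 18.6 and 20.4 TPM, or 61.7% ± 1.09 of the Rab28 TPM. Rab28-205 took 4.18 and 6.34 TPM, or 16.5% ± 3.48, and Rab28-203 took 4.85 and 5.11 TPM, or 15.8% ± 0.709. In the kallisto-layout table these forms stood at 15.5, 3.99 and 5.26 TPM on average. The 3 coding ends are shown to compare their cysteine codons, in capitals.
Rab28-201: cctcggagctccatgTGTgcagtgcagtga
Rab28-203: gctcagagtagagtcTGTtcagtacagtag
Rab28-205: gcagaaatagaacagtcacagactgtatga

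Rab28-201 and Rab28-203 end differently but keep a single cysteine codon 3 codons before the last, and Rab28-205 has none among its last 5 codons. By counts Rab28-205 held 8.58% ± 2.00 of the gene and Rab28-203 17.1% ± 0.390.

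Rab6a has a pair of alternative forms of exon 4, and the stretch in which they differ covers coding bases 184 to 279. The 2 sequences of 96 bases are shown because they mark the known splice forms of Rab6a, with the 30 bases that differ in capitals. The stretch lies at mm10 chr7:100629838-100629933 in Rab6a-201 and at chr7:100629666-100629761, upstream of it, in Rab6a-202, both on the plus strand.
Rab6a-201: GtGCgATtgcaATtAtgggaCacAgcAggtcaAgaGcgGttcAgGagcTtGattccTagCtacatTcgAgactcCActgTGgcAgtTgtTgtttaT
Rab6a-202: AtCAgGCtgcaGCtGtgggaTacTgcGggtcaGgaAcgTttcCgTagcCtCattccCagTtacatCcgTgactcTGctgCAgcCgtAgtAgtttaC

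Rab6a-201 took 118.8 and 131 TPM. Rab6a-202 was listed at 0 TPM in both libraries, but Rab6a-203, which starts elsewhere, holds the same stretch as Rab6a-202 and took 13.3 and 15.1 TPM. Transcripts with the Rab6a-201 stretch thus held 90.0% and 89.7% of the complete coding Rab6a TPM, 91.6% ± 0.169 of the counts and 92.2% ± 0.630 of the kallisto-layout TPM. Reads outside the stretch also enter these shares.

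At 100 counts or more the replicates agreed about as closely for the Rab genes as for all genes. Ratios are of replicate 1 over replicate 2, from CPM, counts relative to library size, scaled with edgeR's TMM method. Of 55 Rab genes that averaged 10 counts or more, 0 were 2-fold apart, beside 2.64 percent of 18897 genes, and at 100 counts 0 of 50, beside 0.29 percent of 13095 genes. At such shares a set of this size would hold few such genes or none, so these counts do not set the Rab genes apart. The median absolute log2 ratio of the 55 was 0.09, beside 0.12 over all genes. At 100 counts or more it was 0.0930, beside 0.0906 over all genes, so no closer agreement of Rab genes was seen there. The largest ratio above 100 counts was that of Rab37, at 124 and 82 counts, with a log2 ratio of 0.77. Rab13 and Rab36 followed with 0.28 and 0.14. At the other end stood Rab3b with -0.32, on 615 and 879 counts, then Rab26 with -0.25 and Rab39b with -0.22.

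Most Rab genes were lower in replicate 1, 39 of 55 or 70.9% beside 52.8% of all genes, with a median log2 ratio of -0.06 beside -0.01. At 100 counts or more the share was 76.0%, beside 58.6% of all genes and 59.9% of nuclear protein-coding genes. Both shares moved with the scaling. Library size alone gave 63.6% of the 55 beside 46.6% of all genes, and spike-in scaling 80.0% beside 64.3%. In regulated secretion 7 of 8 were lower in replicate 1, with a median of -0.20, and Rab3a itself had -0.20. The endoplasmic reticulum and Golgi group had 10 of 13 lower, with a median of -0.08, and the early endosome group 4 of 7, with a median of -0.00166. Cell type markers moved in the same libraries. The 5 neuronal markers were all lower in replicate 1, with summed levels of 2124 and 2301 TPM and a median log2 ratio of -0.13. The 4 oligodendrocyte markers were all higher there, with 1725 and 1384 TPM and a median of 0.30, and the 4 microglial markers were too, with 368 and 338 TPM and a median of 0.15. The 4 astrocyte markers were all higher by count ratio, with a median of 0.07, but their summed TPM was lower in replicate 1, 1037 beside 1049. The choroid plexus markers moved most, with 439 and 150.2 TPM and a median of 1.55 over the 2 at 100 counts or more. Of 3 endothelial markers 2 were lower in replicate 1 and 1 was higher. No marker was at 0. Their part in the Rab differences was not tested, and in bulk tissue fewer cells of a type and less RNA per cell cannot be told apart.

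**Figure D4:**
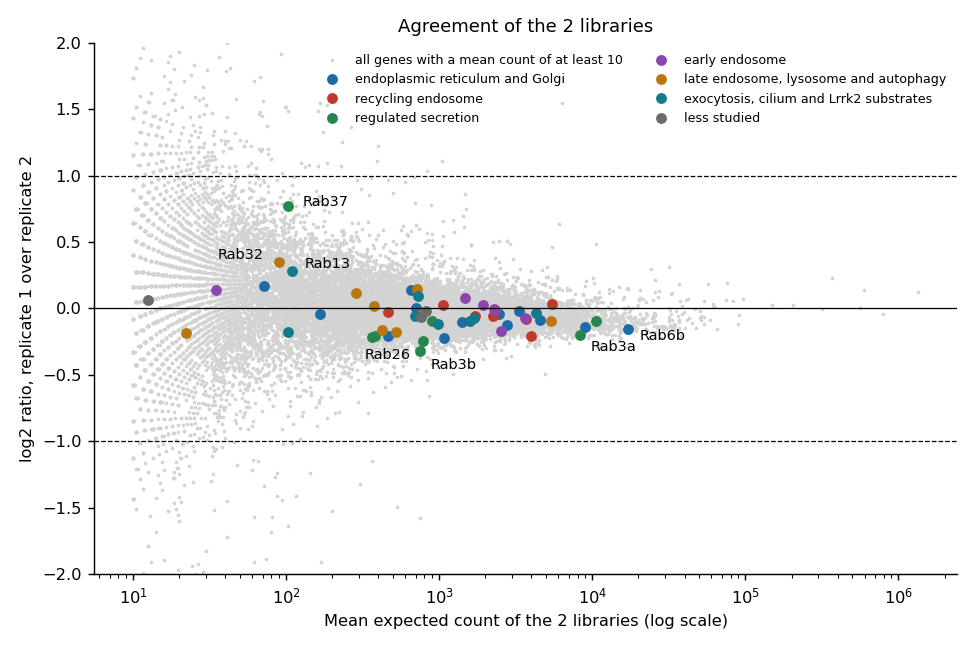
The log2 ratio of replicate 1 over replicate 2 against the mean expected count on a log axis, with all genes in grey and Rab genes coloured by role. The 55 Rab genes lie inside the dashed 2-fold lines, with Rab37 highest at 0.77 and Rab3b lowest at -0.32. For 75 genes the ratio lies beyond the drawn range.

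TPM and counts gave a different picture of the replicates for 4 detected genes, in which the log2 TPM ratio and the log2 count ratio differed by more than 0.2. Rab43 had 5.64 and 9.05 TPM on 396 and 524 counts, and its processed form Rab43-207 of 323 bases took 0.58 and 3.53 TPM on 2.56 and 17.6 counts. Rab30, a Golgi Rab, had 12.3 and 17.5 TPM on 1270 and 1555 counts, and Rab30-205, 437 bases long, was at 0 in replicate 1 and at 4.27 TPM on 32.2 counts in replicate 2. Rab7b had 5.18 and 6.71 TPM but a log2 count ratio of 0.11, and Rab7b-204 of 607 bases took 0 and 1.82 TPM. The remaining gene was Rab27a, with 7.62 and 7.54 TPM on 314 and 416 counts. In the first 3 the short transcript differed between the libraries by few counts next to those of the gene.

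Levels in the gene table and in the kallisto-layout table, 2 quantifications of the same reads, were within 0.5 on the log2 scale for 52 of 53 detected Rab genes, beside 96.4% of nuclear protein-coding genes at 10 TPM or more. These ratios, of the gene table over the kallisto-layout table, were centred on the median of those protein-coding genes. The exception was Rab40b at -0.52, and without centring it was Rab43 at 0.52, with Rab40b at -0.45. For Rab40b the processed form Rab40b-204 was listed at 0 in the transcript table beside 10.7 and 8.64 TPM in the kallisto-layout table. Rab14 had -0.36, with Rab14-206 at 0 in the transcript table beside 23.8 and 21.3 TPM in the kallisto-layout table, and Rab33b had -0.35. In the other direction Rab43 had 0.45, Rab3d 0.33 and Rab28 0.19. In total 20 Rab genes shared exonic positions with another gene, 6 on the same strand and 15 on the opposite one. Prelid1 at 61.3 and 62.1 TPM lies opposite Rab24, Mrpl48 at 27.6 and 29.2 TPM opposite Rab6a, Tox4 at 26.9 and 28.3 TPM opposite Rab2b, Mpv17l2 at 17.7 and 16.9 TPM opposite Rab3a, and Rab10os at 17.2 and 16.8 TPM opposite Rab10. The library kit is directional, but the use of strand in counting is not given in the sources used here, so reads of such partners cannot be told apart with certainty.

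Transcripts of most genes whose proteins load, switch or bind Rab proteins were detected. The largest ratio of each list is given among its genes averaging 100 counts or more. All 8 genes of prenylation and membrane delivery were detected, among them the GDP dissociation inhibitor Gdi2 at 134 and 142 TPM and the prenylated Rab acceptor Rabac1 at 113 and 129 TPM. Of 35 matched exchange factor genes 33 were detected, with Sbf1 at 144.5 and 140.2 TPM, Dennd5a at 98.7 and 97.5 TPM and Madd, which acts on Rab3 and Rab27, at 87.2 and 89.0 TPM, and the largest ratio at 100 counts was that of Dennd3 at 0.33. Of 34 GTPase-activating protein genes 33 were detected. Rabgap1l had 81.2 and 101 TPM, Tbc1d9b 50.2 and 52.6 TPM and Tbc1d10b 42.6 and 43.6 TPM, and Tbc1d25 had the largest ratio at 100 counts, -0.39. These detected counts stand beside 60.2 percent of nuclear protein-coding genes. None of the regulator genes at 100 counts or more was 2-fold apart, beside 0.29 percent of 13095 genes. At such a share few or none would be, so this does not set the regulator genes apart.

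Of the 12 Rab3 and Rab27 effectors 8 were detected, a share near the 60.2 percent of nuclear protein-coding genes. Rims1, the active zone scaffold that binds Rab3, stood at 118 and 118 TPM, rabphilin Rph3a at 87.1 and 91.0 TPM and Rims2 at 44.6 and 44.3 TPM, whereas Sytl1, Sytl3 and Sytl4 of the synaptotagmin-like family stayed below 1 TPM and Unc13d was at 1.24 and 0.92 TPM. Mlph, the melanophilin of pigment cells, had 1.55 and 2.00 TPM and the largest ratio of the list at 100 counts, -0.32. All 17 effectors of early and recycling endosomes were detected, led by the motor Myo5b at 91.2 and 112.5 TPM, Rab11fip4 at 70.0 and 70.3 TPM and the Rab5 effector Rabep1 at 48.2 and 50.9 TPM, and Rab11fip1 had the largest ratio at 0.21. All 9 late endosome effectors were detected, with the HOPS subunits Vps41 at 65.2 and 66.3 TPM and Vps39 at 31.8 and 28.1 TPM, Osbpl1a at 58.6 and 52.8 TPM, and Rabepk with a ratio of -0.20. Of 12 Golgi effectors 11 were detected, with Gorasp2 at 42.6 and 45.0 TPM, Golga2 at 40.0 and 38.7 TPM, Gcc2 at 33.9 and 34.0 TPM and Cog6 with a ratio of -0.10, and the motor Kif20a, a mitotic kinesin, was below the limit at 0.12 and 0.47 TPM. All 8 genes of the Lrrk2 branch were detected, with the motor adaptors Mapk8ip3 at 164 and 169 TPM and Spag9 at 93.3 and 92.2 TPM, the retromer subunit Vps35 at 50.3 and 53.0 TPM, and the Rab phosphatase Ppm1h at 29.3 and 30.3 TPM with a ratio of -0.08.

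RefSeq promoter windows, 250 bases before to 50 bases after the start on GRCm38.p6, were found for 48 of the 59 Rab genes. They held a median of 21.5 CpG dinucleotides, beside 7 over all 32851 windows. The sets are unlike. For each Rab gene the window nearest the start of its main transcript was taken, while the 32851 are all windows, with no choice by gene or level. The 44 detected genes among the 48 Rab genes had a median of 23.5 CpG. Rab42, Rab25, Rab19 and Rab17, which were below 1 TPM in at least 1 library, had 6, 9, 9 and 5. Of the 48 windows, 41 lie within 100 bases of the start of the gene's main transcript. The farthest are the window of Rab3b, a detected gene with 8 CpG, at 11220 bases and that of Rab17 at 1994 bases. The CpG counts of these windows need not describe the start of the main transcript. Rab33a had 7 CpG and was detected, so the groups overlapped. The windows of Rab3a, with 18 CpG, of Rab10, with 43, and of Rab25, with 9, are shown as examples of a highly expressed gene, of a high CpG count and of a gene below 1 TPM, with each CG in capitals. They lie at chr8:70754453-70754752 on the plus strand, chr12:3309920-3310219 on the minus strand and chr3:88548230-88548529 on the minus strand.
Rab3a: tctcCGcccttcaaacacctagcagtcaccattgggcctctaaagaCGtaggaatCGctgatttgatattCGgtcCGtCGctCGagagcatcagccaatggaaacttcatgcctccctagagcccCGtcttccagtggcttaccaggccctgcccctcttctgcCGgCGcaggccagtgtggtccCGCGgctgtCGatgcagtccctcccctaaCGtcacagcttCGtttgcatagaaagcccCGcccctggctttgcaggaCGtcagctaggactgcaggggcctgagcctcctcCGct
Rab10: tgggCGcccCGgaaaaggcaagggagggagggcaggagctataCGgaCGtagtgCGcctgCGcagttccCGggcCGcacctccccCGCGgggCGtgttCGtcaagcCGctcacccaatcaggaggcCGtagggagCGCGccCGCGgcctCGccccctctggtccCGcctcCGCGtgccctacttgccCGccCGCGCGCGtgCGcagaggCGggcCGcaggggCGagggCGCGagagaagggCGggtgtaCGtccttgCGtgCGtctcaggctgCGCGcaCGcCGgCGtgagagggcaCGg
Rab25: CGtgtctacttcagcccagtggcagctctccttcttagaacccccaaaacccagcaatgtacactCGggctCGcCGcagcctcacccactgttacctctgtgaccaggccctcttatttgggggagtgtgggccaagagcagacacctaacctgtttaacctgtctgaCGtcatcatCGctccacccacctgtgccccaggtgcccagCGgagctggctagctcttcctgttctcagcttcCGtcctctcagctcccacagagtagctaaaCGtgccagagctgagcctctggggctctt

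Motifs were searched on both strands as exact letters, in the same 2 unlike sets of windows. The GC box GGGCGG was found in 36 of the 48 windows, or 75.0%, beside 35.7% of all windows, and CCAAT in 24, or 50%, beside 37.4%. TATAAA was found in 4, or 8.33%, beside 13.6%, the E-box CACGTG in 5, or 10.4%, beside 7.15%, and the cAMP response element TGACGTCA in 2, or 4.17%, beside 1.79%. A match is a description of the letters and not a bound site.

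**Figure D5:**
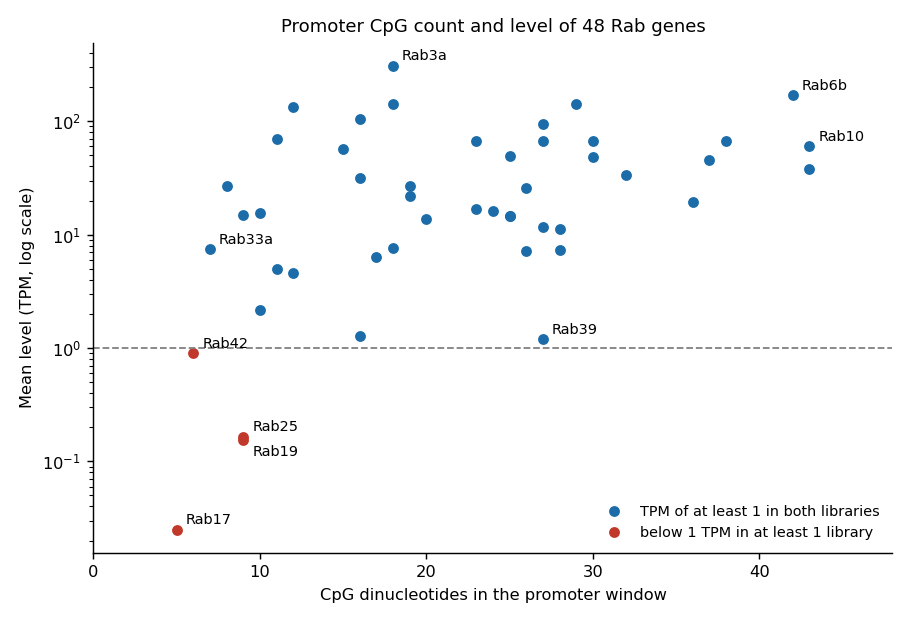
Mean level of 48 Rab genes in TPM on a log axis against the number of CpG dinucleotides in the promoter window. The red points, below 1 TPM in at least 1 library, lie at 5 to 9 CpG, and the blue points reach 43, with Rab10 at 59.9 TPM.

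On the X chromosome lie Rab39b, Rab9, Rab33a and Rab9b, for which only protein-coding transcripts are annotated. Their log2 ratios were -0.22, -0.16, -0.04 and -0.18.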

How the data were processed

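Total RNA of 2 libraries of 1 group was analysed, and the members and gene lists were chosen with earlier results of these data known. Per the file headers and the readme deposited with them, each library was quantified separately on mm10 with GENCODE M21. The authors deposited, in the layout of RSEM, expected counts, TPM, a percent of each gene's TPM per transcript and a posterior SD of the count. A further deposited table per library holds TPM and estimated counts of transcripts in kallisto's layout. Program names and versions: not given in the sources used here. Gene-table TPM sums over spike-ins too, and no CAST sequence was used, whose effect on mapping was not tested. Rows that name no gene, 0.000658% and 0.000659% of the counts, were left out.

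All 55536 gene identifiers matched GENCODE M21. Detected means 1 TPM or more in each library. For ratios, edgeR 4.0.16 under R 4.3.3 computed TMM factors from expected counts rounded to integers, with a prior count of 2 and a mean count of 10 or more. The coefficient of variation from edgeR's common dispersion was 7.11%. DESeq2 1.42.0 size factors, library size, spike-ins, other filters and priors, and the kallisto-layout table were alternatives. Ratios of the gene table to the kallisto-layout table were centred on 8392 nuclear protein-coding genes averaging 10 TPM or more. The complete coding sequence with the highest mean count stood for each gene, and pairs were aligned globally with Biopython 1.88. Promoters are from RefSeq, GRCm38.p6. The ratio script was tested on simulated counts. Python 3.11.15, numpy 2.4.6, pandas 2.3.3 and matplotlib 3.10.9 were used.

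Every member could be named. Named in full were the 3 highest of each role, the 3 highest and 3 lowest ratios at 100 counts, the 3 that differed most each way between tables and the 5 with the largest noncoding share at a mean TPM of at least 5, the 5 with the largest posterior SD, and X-linked members. Of each regulator list these were the 3 highest and the largest ratio, and 1 gene so chosen is not reported here. Other regulator genes below the limit, transcripts, overlapping genes and printed sequences were chosen after their values were seen.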

Additional observations from a re-analysis of the deposited data

How the results depend on the processing

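The count of 53 detected Rab genes was 55 at 0.5 TPM, 50 at 2 TPM and 54 in the kallisto-layout table, and leaving out 1 replicate gave 53 to 54. The median TPM of 16.9 and the summed TPM of 2382 became 37.8 and 5325 when TPM was rescaled over nuclear protein-coding genes alone. Leaving out a replicate returns the value of the other library, so here and elsewhere in this section it is no separate check. The single libraries gave medians of 16.3 and 17.5 and sums of 2301 and 2464. The median log2 ratio stayed below 0 under each scaling, filter and prior, from -0.03 with library size alone to -0.12 with spike-in scaling, but all genes moved with it, to medians of 0.01 and -0.07. The count of genes 2-fold apart was 0 under each scaling, each prior and in the kallisto-layout counts, and 2 with no count filter, Rab19 on 8 counts and 1 count and Rab25 on 4 counts and 1 count. The median log2 ratio of gene table to kallisto-layout table was 0.00362 when centred and 0.0789 when not. The share of TPM on coding transcripts was 91.5%, 91.2 to 91.8% without either replicate, and 86.8% ± 0.290 in the kallisto-layout transcripts. The detected count of each regulator list stayed within 1 gene at 0.5 and 2 TPM. Of 36 named Rab genes 25 had a kallisto-layout level further from the gene-table level than 1 SD of the replicates. These levels were not centred, so the general offset between the quantifications, 0.0753 on the log2 scale, enters that count. For 2 genes the ratio between replicates was further from the main ratio than 0.145. This is the SD of such a ratio from edgeR's common dispersion alone, without counting error. No paired analysis was possible because there is 1 group. Below about 100 counts, counting error limits each ratio.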
